A study of Mus musculus with 8 samples.

Results

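The 10 genes described here (Ttr, Folr1, Clic6, Sostdc1, Kl, Otx2, Kcne2, F5, Calml4 and Car12) are genes of the choroid plexus epithelium. They were taken by gene symbol from a table of 22206 probe sets, of which 19572 carry 1 symbol, and each gene had 1 probe set. The genes were chosen by their log2 values in the same 8 arrays, in which they were high together in single arrays. Levels and differences of these 10 genes are therefore given as a description, with no test.

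Total RNA from cerebral cortex and hippocampus of male mice, 12 weeks old, was measured on 8 arrays. Clothianidin (CLO50) was given at 50 mg/kg/day over 2 weeks, and the control mice (Ctrl) were given vehicle, 1% DMSO. Clothianidin is a neonicotinoid insecticide that acts on nicotinic acetylcholine receptors, and the submitters give the dose as one with no observed adverse effect. The 4 groups were control cortex, exposed cortex, control hippocampus and exposed hippocampus, with 2 arrays in each. The strain is not given in the sources used here, and the labels do not say whether samples were pooled. Each array is called by its tissue, its arm and the number in its label, 1 or 6 for controls and 3 or 6 for exposed samples of both tissues. The labels name no animals, so a p-value here reflects the spread of these samples alone, part of which may be technical.

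The choroid plexus is a sheet of epithelium around a fenestrated capillary bed that hangs in the brain's ventricles, one sheet lying beside the hippocampus in the lateral ventricle. Its epithelial cells secrete cerebrospinal fluid by moving sodium, chloride and bicarbonate across their membranes, and they pass folate from blood to fluid. Transthyretin, the product of Ttr, is their most abundant secreted protein, and the homeodomain factor OTX2 maintains their identity. Cells of cortical and hippocampal tissue proper, neurons and glia, are not known as a main source of Ttr or Otx2.

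Upstream sequence is shown for 4 of the genes because these genes moved together over the arrays and one of them, Otx2, encodes a transcription factor of this epithelium. The windows hold the 250 bases before an annotated start site, written 5′ to 3′ on the gene's strand, from RefSeq with build GRCm38.p6. Capitals mark CpG dinucleotides in the first 3 windows, and in the Otx2 window they mark the 1 match to TAATCC, the core that OTX2 binds, in its reverse form GGATTA.

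F5 (chr1:164151585-164151834, plus strand): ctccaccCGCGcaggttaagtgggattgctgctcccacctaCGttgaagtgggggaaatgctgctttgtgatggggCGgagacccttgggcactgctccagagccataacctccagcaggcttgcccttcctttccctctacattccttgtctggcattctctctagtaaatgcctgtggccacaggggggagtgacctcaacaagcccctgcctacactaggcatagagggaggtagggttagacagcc
Kl (chr5:150952357-150952606, plus strand): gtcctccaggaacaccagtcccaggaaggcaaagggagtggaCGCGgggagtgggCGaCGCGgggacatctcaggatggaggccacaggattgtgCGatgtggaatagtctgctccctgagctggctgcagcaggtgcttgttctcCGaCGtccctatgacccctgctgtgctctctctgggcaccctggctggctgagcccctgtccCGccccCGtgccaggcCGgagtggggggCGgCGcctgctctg
Kcne2 (chr16:92292139-92292388, plus strand): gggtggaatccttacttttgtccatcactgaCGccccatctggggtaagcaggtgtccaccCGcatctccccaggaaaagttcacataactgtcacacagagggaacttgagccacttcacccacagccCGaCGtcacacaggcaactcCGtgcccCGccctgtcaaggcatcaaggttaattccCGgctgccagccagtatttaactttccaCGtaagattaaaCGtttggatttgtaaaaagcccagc
Otx2 (chr14:48665110-48665359, minus strand): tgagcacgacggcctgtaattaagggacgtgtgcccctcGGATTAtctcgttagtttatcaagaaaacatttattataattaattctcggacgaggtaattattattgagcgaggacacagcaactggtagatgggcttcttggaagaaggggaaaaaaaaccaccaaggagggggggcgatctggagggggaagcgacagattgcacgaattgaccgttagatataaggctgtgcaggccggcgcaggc

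Windows were held for 6 of the 10 genes, with 10 start sites in all (4 of Otx2, 2 of Kcne2). Both strands were searched for TAATCC, and 1 of the 10 windows held it, the Otx2 window above, at position -211 from the start site. The share over all 32841 windows of the same length was 6.3%. The other 9 windows do not contain these letters, which says nothing of the factor's binding. The Kl window held 13 CpG and 66.8% G and C, the F5 window 4 and 57.2%, and the Kcne2 window shown 9 and 52.4%. The second Kcne2 start site had 1 CpG, against a median of 6 over all windows. TATAAA within the last 50 bases stood in 2.6% of all windows and in 0 of the 10.

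Array medians lay between 5.21 and 5.4 on the log2 scale over all probe sets. The labelled tissues were checked with neuronal markers: all 6 hippocampal markers tested (Prox1, Lct, Dsp, C1ql2, Spink8 and Fibcd1) were higher in hippocampus in both arms. In control arrays 5 of 6 cortical probe sets (Tbr1, Cux2, Lamp5 and both of Rorb) were lower in hippocampus, and in exposed arrays 3 of 6 were (Tbr1, Cux2 and Lamp5), by limma with adjusted p under 0.05. The calls of Rorb were lost without cortex control 1 (-0.62 and -0.67, adjusted p = 0.28 and 0.3), hippocampus control 1 (adjusted p = 0.087 and 0.1) or hippocampus control 6 (adjusted p = 0.072 and 0.069). Hippocampus control 1 and cortex control 6 stood apart in the genes described here, so the exposure values of the 10 genes and of the lists led by these arrays are given with and without them. Bulk values cannot tell fewer cells of a type from less RNA per cell.

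Ttr showed the widest range. It measured 4.17 in cortex control 1, 15.41 in cortex control 6, 5.73 in cortex exposed 3 and 4.68 in cortex exposed 6. In hippocampus it measured 19.51 in control 1, 7.76 in control 6, 7.27 in exposed 3 and 6.39 in exposed 6. Transthyretin carries thyroxine and, through its partner retinol-binding protein, vitamin A. Both high arrays were controls, 1 in each tissue, and they carry different label numbers. The value of 19.51 lies close to 19.93, the highest in the table. The group means were 13.64 ± 8.31 in control hippocampus, 9.79 ± 7.95 in control cortex, 6.83 ± 0.62 in exposed hippocampus and 5.21 ± 0.74 in exposed cortex (SD, n = 2). In each tissue the 2 control arrays differed from each other by more than any 2 of these means did.

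Among the membrane proteins, Folr1 encodes the folate receptor alpha that loads folate into cerebrospinal fluid. Folr1 measured 4.26 and 5.49 in control cortex (arrays 1 and 6), 3.60 and 4.13 in exposed cortex (arrays 3 and 6), 11.55 and 4.43 in control hippocampus, and 3.36 and 4.97 in exposed hippocampus. Hippocampus control 1 was 6.06 above the next array, cortex control 6, which is the largest such gap of the 10 genes. Clic6 encodes a protein of the chloride intracellular channel family. In the same order Clic6 measured 4.4 and 6.79, then 4.0 and 4.91, then 12.44 and 4.48, and in exposed hippocampus 5.47 and 4.80. Cortex control 6 again came second to hippocampus control 1, at a distance of 5.65.

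Kcne2 encodes an accessory subunit of potassium channels at the apical membrane of this epithelium. Kcne2 measured 2.59 and 3.22 in control cortex, 2.73 and 3.38 in exposed cortex, 9.26 and 3.46 in control hippocampus, and 4.11 and 3.13 in exposed hippocampus. Hippocampus control 1 stood 5.15 above the next array, and the other 7 arrays lay within 2.59 to 4.11. Kcne2 and Clic6 lie near each other on chromosome 16. Of the 5 protein-coding genes between them in the RefSeq table, 4 had a probe set (Smim11, Fam243, Kcne1 and Rcan1). In hippocampus control 1 these deviated by -0.07 to 0.25 from the median of the other hippocampus arrays. Smim11 measured 8.62 and Rcan1 9.51 there. Fam243 measured 2.49 to 3.13 and Kcne1 2.23 to 2.84 over the 8 arrays, levels not shown to be above background.

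Car12 encodes a membrane-bound carbonic anhydrase, an enzyme that interconverts carbon dioxide and bicarbonate. Car12 measured 4.50 and 4.92 in control cortex, 5.51 and 5.52 in exposed cortex, 10.57 and 8.32 in control hippocampus, and 7.88 and 7.30 in exposed hippocampus. Each of the 4 hippocampus arrays was above each of the 4 cortex arrays, and hippocampus control 1 exceeded the next array by 2.25, the smallest gap of the 10. Kl encodes klotho, a membrane protein that serves as co-receptor for FGF23 and is also shed into the fluid. Kl measured 3.87 and 5.91 in control cortex, 4.46 and 4.4 in exposed cortex, 12.53 and 7.38 in control hippocampus, and 8.08 and 7.71 in exposed hippocampus. Kl therefore shared both features: hippocampus control 1 was 4.45 above the next array, and the other hippocampus arrays, at 7.38 to 8.08, were all above the cortex arrays.

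Sostdc1 encodes a secreted inhibitor of BMP and WNT signalling. Sostdc1 measured 4.96 and 4.86 in control cortex, 3.99 and 4.13 in exposed cortex, 9.77 and 5.54 in control hippocampus, and 4.79 and 5.32 in exposed hippocampus. Cortex control 6 did not stand out in Sostdc1, where it was just below cortex control 1. Otx2, the homeodomain factor, measured 3.38 and 3.85 in control cortex, 3.67 and 3.33 in exposed cortex, 9.55 and 3.49 in control hippocampus, and 3.39 and 3.25 in exposed hippocampus. Apart from hippocampus control 1, all Otx2 values lay within 3.25 to 3.85.

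F5 encodes coagulation factor V. F5 measured 3.58 and 4.13 in control cortex, 3.60 and 3.53 in exposed cortex, 9.04 and 2.60 in control hippocampus, and 3.35 and 3.18 in exposed hippocampus. Hippocampus control 6 was the lowest of all arrays in F5 while control 1 was the highest. Calml4 encodes a calmodulin-like protein. Calml4 measured 2.78 and 3.34 in control cortex, 3.86 and 3.45 in exposed cortex, 7.47 and 4.80 in control hippocampus, and 3.58 and 4.09 in exposed hippocampus. Here both control hippocampus arrays were above all others, with a gap of 2.67 between them.

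**Figure D1:**
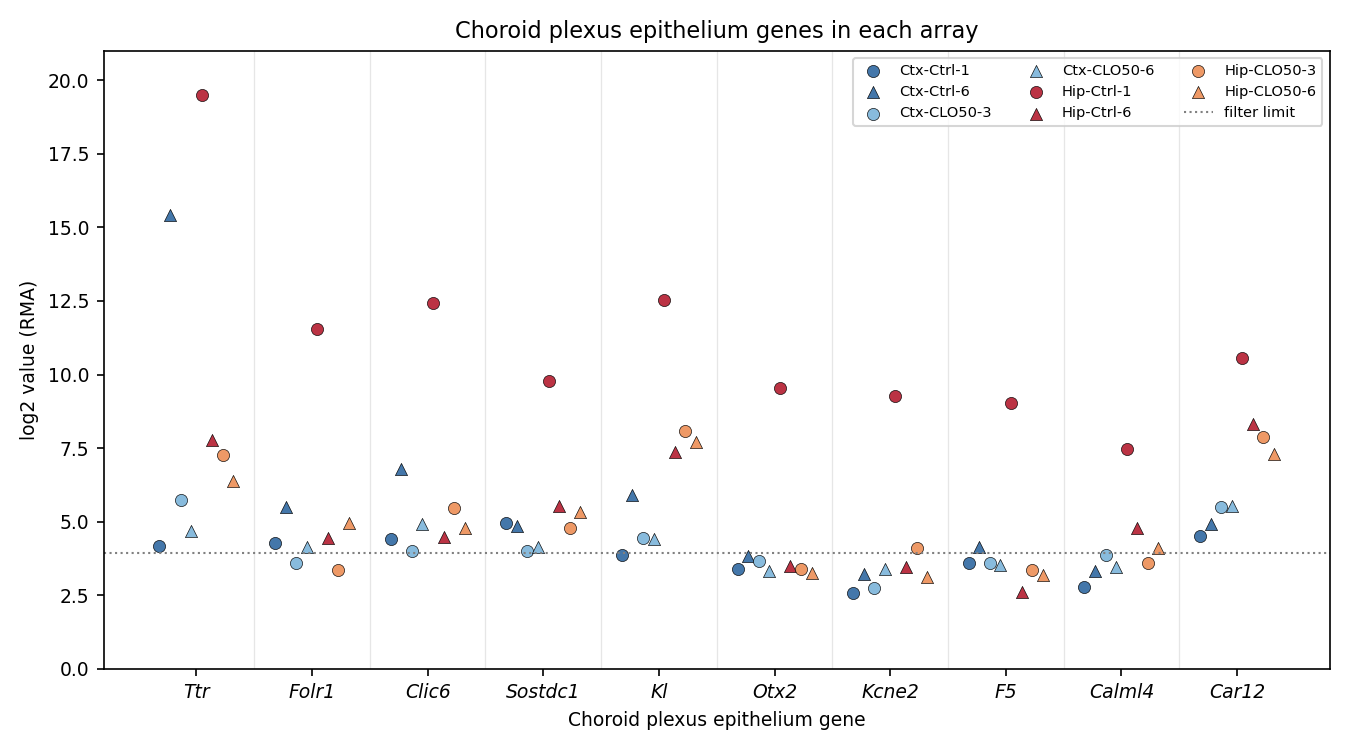
The plot gives the log2 value (vertical axis) of each of the 10 genes (horizontal axis) in each of the 8 arrays, coloured by group, with circles for label numbers 1 and 3, triangles for number 6, and a dotted line at 3.937, below which probe sets were filtered by their mean. Hippocampus control 1 is the highest point for all 10 genes, cortex control 6 is the second highest for Ttr at 15.41, and Kl and Car12 are higher in every hippocampus array than in every cortex array.

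Many of the lower values are at levels not shown to be above background, since no detection value was available. Of the 80 values of the 10 genes, 27 were below 3.937, the limit set by the lowest 33.3% of probe-set means, and 0 of these were in hippocampus control 1. All 10 genes passed this filter. For 4 of them (Otx2, Kcne2, F5 and Calml4) the mean over the other 7 arrays was below the limit, so they passed only through hippocampus control 1.

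The genes were high together in 1 array. Hippocampus control 1 was the highest of the 8 arrays for 10 of 10 genes, against 17.4% of the 14804 probe sets tested. For 8 of the 10 it was at least 4 above the next array on the log2 scale, against 0.0743% of all tested probe sets. Since these values chose the genes, nothing is read from either count. A gap of at least 4 was found for 11 probe sets in all. The other 3 were Lbp, encoding lipopolysaccharide-binding protein, Kcnj13, an inwardly rectifying potassium channel of this epithelium, and Ecrg4, which encodes a secreted peptide precursor.

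In cortex control 6 the genes were unevenly high. This array was the highest of the 4 cortex arrays for 6 of 10 genes (Ttr, Folr1, Clic6, Kl, Otx2 and F5), against 20.9% of all tested probe sets. Nothing is read from this count either, since these values chose the genes. Against the mean of the other 3 cortex arrays, cortex control 6 was higher by 10.55 in Ttr, 2.35 in Clic6, 1.67 in Kl and 1.49 in Folr1. Otx2, Kcne2, F5 and Sostdc1 were 0.32 to 0.56 higher there, and Calml4 and Car12 differed by -0.02 and -0.26. Hippocampus control 1 exceeded cortex control 6 by 4.10 in Ttr and by 4.13 to 6.62 in the other 9 genes.

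Each array was next set against the median of the other 3 arrays of its tissue. The median deviation over the 10 genes was 5.83 in hippocampus control 1 (range 2.69 to 12.24) and 0.64 in cortex control 6 (range -0.59 to 10.73). In the other 6 arrays it lay between -0.55 and 0.04. Over all tested probe sets the median deviation of an array was -0.05 to 0.05. Without hippocampus control 1 control 6 was the highest hippocampus array for 5 genes, exposed 3 for 4 and exposed 6 for 1, against 28.4%, 35.1% and 35.0% of all tested probe sets. Without cortex control 6, cortex control 1 was highest for 2 genes, exposed 3 for 5 and exposed 6 for 3, against 38.1%, 27.1% and 33.4%. The difference between control arrays 1 and 6 had the opposite sign in the 2 tissues for 9 of the 10 genes, all but Sostdc1. Hippocampus control 1 was above control 6 in all 10, the values that chose the genes. The count thus only restates that cortex control 6 exceeded cortex control 1 in 9 genes, and nothing is read from it.

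**Figure D2:**
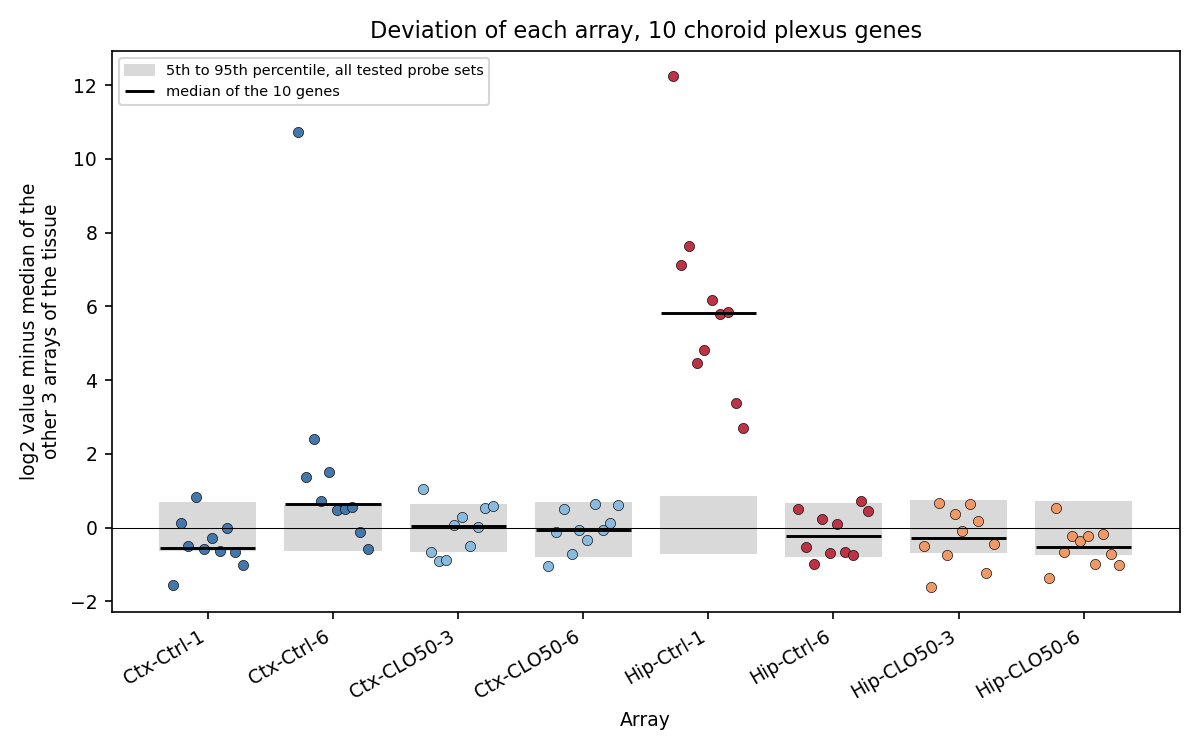
The plot gives, for each array (horizontal axis), the log2 value of each of the 10 genes minus the median of the other 3 arrays of that tissue (vertical axis), with a black line at their median and a grey box from the 5th to the 95th percentile of all tested probe sets. All points of hippocampus control 1 lie at 2.69 or above with a median of 5.83, and in cortex control 6 Ttr lies at 10.73 while the median is 0.64.

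Exposed and control arrays were compared within each tissue, the study's main question. In hippocampus the exposed mean was below the control mean for all 10 genes, with a median log2 difference of -2.67, against 0.005 over all tested probe sets. The differences ran from -6.81 (SE 3.35) for Ttr to -1.86 (SE 0.55) for Car12. Folr1 differed by -3.83 (SE 1.54), Clic6 by -3.33 (SE 1.74), Otx2 by -3.20 (SE 1.28) and Kcne2 by -2.74 (SE 1.25). Sostdc1 differed by -2.60 (SE 0.91), F5 by -2.56 (SE 1.35), Calml4 by -2.30 (SE 0.64) and Kl by -2.06 (SE 1.17). The SE is that of the limma model fitted to all probe sets.

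Those differences moved with 1 array. Without hippocampus control 1 the median was -0.22, with 4 genes higher and 6 lower in exposed arrays. Ttr then differed by -0.93, Folr1 by -0.27, Sostdc1 by -0.49, Otx2 by -0.17, Calml4 by -0.97 and Car12 by -0.73. Clic6 differed by 0.66, F5 by 0.67, Kl by 0.52 and Kcne2 by 0.16. Without hippocampus control 6 in its place the median was -5.71. In 5 of the 10 genes (Ttr, Sostdc1, Otx2, Calml4 and Car12) both exposed arrays lay below both controls, against 14.0% of all tested probe sets, and in 0 both lay above, against 16.7%. Hippocampus control 1 was above every other array in all 10, so these counts turn on control 6 alone. Control 6 was above both exposed arrays in 5 genes, against 28.4% of all tested probe sets. Otx2 and Calml4 passed the filter only through control 1. Since these values chose the genes, nothing is read from these counts. The distance to control 6 was small in some of the 5 genes, as Otx2 was at 3.49 in control 6, 3.39 in exposed 3 and 3.25 in exposed 6.

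In cortex the exposed mean was lower for 7 genes and higher for 3, with a median difference of -0.38 against -0.025 over all tested probe sets. Ttr differed by -4.59 (SE 3.35), Clic6 by -1.14 (SE 1.74), Folr1 by -1.01 (SE 1.54) and Sostdc1 by -0.85 (SE 0.91). Kl differed by -0.46 (SE 1.17), F5 by -0.29 (SE 1.35) and Otx2 by -0.12 (SE 1.28). Kcne2 differed by 0.15 (SE 1.25), Calml4 by 0.60 (SE 0.64) and Car12 by 0.81 (SE 0.55). Without cortex control 6 the median was 0.29 and 7 genes were higher in exposed cortex, with Ttr at 1.03, Car12 at 1.01, Calml4 at 0.88 and Kl at 0.56.

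Groups did not overlap in cortex for 4 of the 10 genes. Folr1 and Sostdc1 were lower in both exposed arrays, against 21.4% of all tested probe sets, and Calml4 and Car12 were higher in both, against 17.1%. The direction for Calml4 and Car12 was thus opposite in the tissues, higher in exposed cortex and lower in exposed hippocampus. That difference between tissues was not tested. Sostdc1 was lower in exposed arrays of both tissues without overlap, though in hippocampus it was 5.54 in control 6 and 5.32 in exposed 6. Without the 2 arrays high in Ttr, Sostdc1 differed by -0.90 in cortex and -0.49 in hippocampus, each against a single control array. Calml4 passed the filter only through hippocampus control 1. Since values of these arrays chose the genes, nothing is read from the counts without overlap or from Sostdc1.

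**Figure D3:**
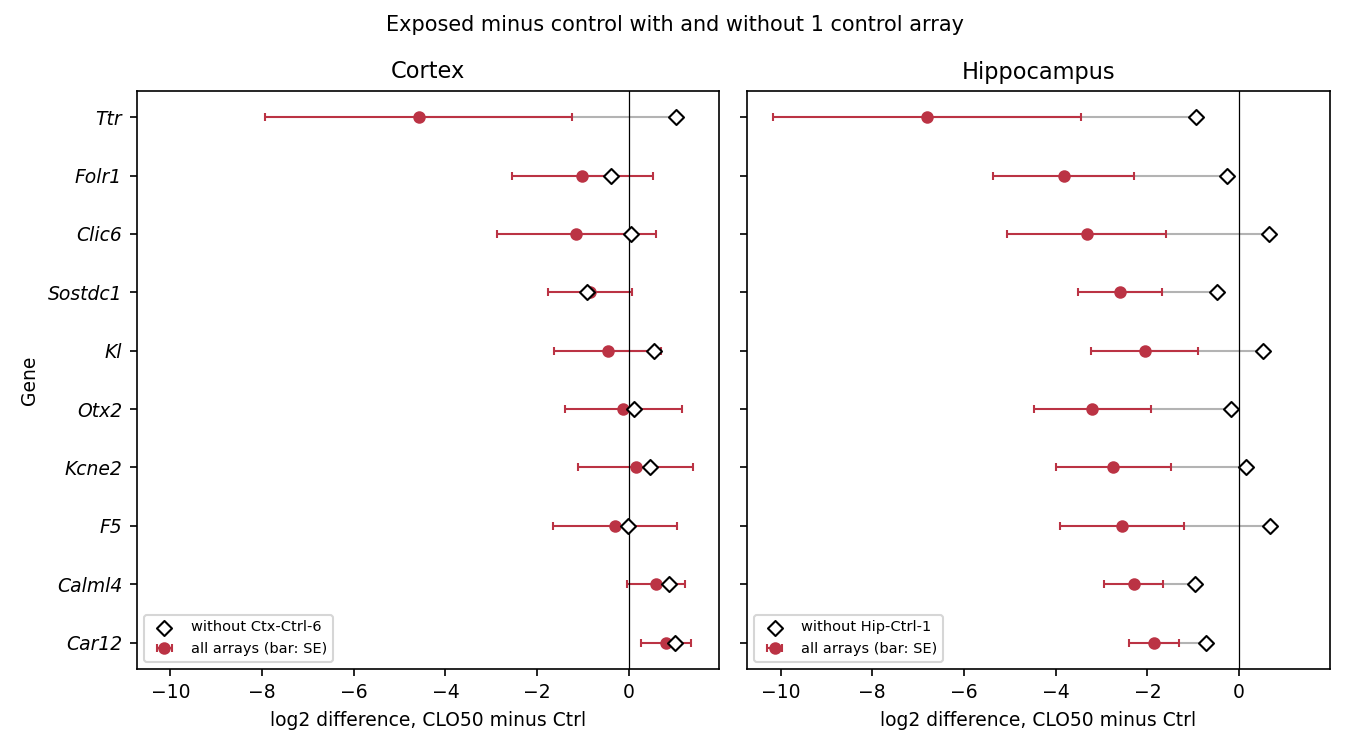
The plot gives the log2 difference of exposed minus control (horizontal axis) for each of the 10 genes (vertical axis), in cortex on the left and hippocampus on the right, as red points with the SE of the limma model and as open diamonds without cortex control 6 or hippocampus control 1. In hippocampus the red points lie between -6.81 and -1.86 and the diamonds between -0.97 and 0.67.

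The tissues were compared within each arm. In control arrays all 10 genes were higher in hippocampus, with a median of 3.10 against 0.10 over all tested probe sets. In 5 genes (Sostdc1, Kl, Kcne2, Calml4 and Car12) the arrays did not overlap, against 34.5% of all tested probe sets. Hippocampus control 1 was above every cortex array in all 10 genes, so this count turns on hippocampus control 6 alone. In exposed arrays 8 were higher and 2 lower, with a median of 0.62 against 0.125. Ttr, Sostdc1, Kl and Car12 were higher there without overlap, against 35.0% of all tested probe sets, and F5 was lower, against 22.0%. Kcne2, Calml4 and F5 passed the filter only through hippocampus control 1. Nothing is read from the counts of either arm, since values of these same arrays chose the genes.

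The genes split by how they behaved outside the 2 arrays high in Ttr. Kl differed between the tissues by 3.47 (SE 1.17) in exposed arrays, and by 3.51 in controls without those 2 arrays. For Car12 these values were 2.08 (SE 0.55) and 3.82, and for Ttr 1.63 (SE 3.35) and 3.59. Calml4 differed by 2.02 between the remaining control arrays and by 0.18 (SE 0.64) in exposed arrays. Folr1, Clic6, Otx2, Kcne2 and Sostdc1 differed by 0.08 to 0.87 between the remaining controls, and F5 by -0.98. Without those 2 arrays the comparison of controls rests on 1 array per tissue and has no replicate check.

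Control hippocampus had the highest group mean for all 10 genes. Control cortex came second for Ttr, Folr1, Clic6, Otx2 and F5, and exposed hippocampus for Sostdc1, Kl, Kcne2, Calml4 and Car12. The step from the first to the second group exceeded the larger of their SDs for 2 genes, Calml4 and Car12, and the step from the second to the third for 2, Kl and Car12. Car12 had group means of 9.45 ± 1.59 in control hippocampus, 7.59 ± 0.41 in exposed hippocampus, 5.52 ± 0.01 in exposed cortex and 4.71 ± 0.30 in control cortex (SD, n = 2), each step larger than the SDs of its neighbours. Folr1, Otx2 and Kcne2 had no such step.

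Other genes of the same epithelium were read from a list of 28, of which 25 had a probe set and 19 were tested. In hippocampus control 1 the list deviated by a median of 2.19 from the other hippocampus arrays, and 14 were at least 2 higher. Of the 25, 21 were highest of the tissue there, against 28.4% of all tested probe sets. The 25 include probe sets outside the test, and the list was made with earlier results of these data known. Nothing is read from this count. Kcnj13 measured 13.44 there, against 4.50 to 5.90 in the other hippocampus arrays and 5.35 to 8.22 in cortex, where 8.22 belonged to cortex control 6. Ecrg4 measured 8.34 against 3.58 to 3.75. Aqp1, the apical water channel, measured 6.92 against 3.06 to 3.60, and Cldn2, a claudin of leaky epithelia, 6.59 against 2.56 to 3.54. Slc4a5, a sodium bicarbonate cotransporter, measured 6.04 against 4.04 to 4.88.

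Not all markers followed. Krt8, Krt18, Msx1 and Wfdc2 deviated by -0.37 to 0.23 in hippocampus control 1. Igfbp2, a carrier of insulin-like growth factors, measured 11.47 there against 8.80 to 9.14. Igf2, the growth factor itself, and the sulfate transporter gene Slc13a4, which meningeal cells also express, were high in 2 hippocampus arrays. Igf2 measured 13.64 in control 1, 10.40 in control 6, 12.12 in exposed 3 and 9.33 in exposed 6, and Slc13a4 measured 8.38, 5.29, 7.26 and 4.69.

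Of the 19 tested, 0 passed in either tissue for exposure (limma, adjusted p under 0.05), where 1 of 14804 probe sets (0.00675%) passed in each tissue. At an unadjusted p under 0.05 there were 7 in hippocampus and 0 in cortex, against 5.81% and 6.18% of all tested probe sets. Of the 19, Ecrg4 and Slc2a12 passed the filter only through hippocampus control 1, so nothing is read from counts that include that array. The median difference was -1.25 in hippocampus, with 18 of 19 lower, and 0.01 in cortex. Without hippocampus control 1 the median in hippocampus was 0.01, with 10 higher, 8 lower and 1 equal, and 0 had an unadjusted p under 0.05. Kcnj13, for one, measured 4.50 in control 6, 5.90 in exposed 3 and 5.16 in exposed 6. Without cortex control 6 the median in cortex was 0.31. Between tissues, 2 passed in control arrays and both were higher in hippocampus, against 10.1% of all tested probe sets in that direction and 7.63% in the other. At an unadjusted p under 0.05 there were 8 of 19 in control and 3 in exposed arrays, against 31.4% and 29.3%. Slc29a4, a monoamine transporter gene, differed by 5.45 (SE 0.37, limma adjusted p = 2.3e-06) and Trpm3, a cation channel gene, by 1.94 (SE 0.35, adjusted p = 0.0025; 0.0002 to 0.042 over the alternatives). In exposed arrays 1 passed, Slc29a4, at 4.42 (SE 0.37, limma adjusted p = 1.3e-05), against 9.25% higher and 5.22% lower over all tested probe sets.

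The transporters of fluid secretion were less distinct in hippocampus control 1. Of 16 listed, 14 had a probe set, and the median deviation was 0.65 with 9 of 14 highest there, against the same 28.4%. The 14 include probe sets outside the test, and nothing is read from this count either. Slc12a2, the sodium-potassium-chloride cotransporter, measured 11.88 there against 10.17 to 11.40 in the other hippocampus arrays. Car2, a cytosolic carbonic anhydrase, measured 14.84 against 13.99 to 14.52. Atp1b1, a sodium pump subunit also abundant in neurons, measured 18.25 against 18.28 to 18.54. The cation channel gene Trpv4 deviated most, by 2.45, and it passed the filter only through hippocampus control 1. For exposure, limma passed 0 of 12 tested in either tissue. At unadjusted p under 0.05 there were 1 in hippocampus and 0 in cortex, against 5.81% and 6.18% of all tested probe sets. Between tissues Slc12a4 passed in controls at 1.71 (SE 0.36, limma adjusted p = 0.0069, but 1.65 and 0.058 without cortex control 6, and 1.31 and 0.15 without both arrays highest in Ttr), and 0 passed in exposed arrays, where 1 had an unadjusted p under 0.05.

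Folate, vitamin and anion transporters deviated by a median of 0.47 in hippocampus control 1. Next to Folr1, the reduced folate carrier gene Slc19a1 measured 7.91 there against 7.51 to 7.75, and the proton-coupled folate transporter gene Slc46a1 5.80 against 4.83 to 5.57. Slco1c1, a thyroxine transporter gene of vessels and this epithelium, measured 12.94 against 10.98 to 11.05. For exposure 0 of 9 tested passed in limma in either tissue, and 0 had an unadjusted p under 0.05. Slc23a2, a vitamin C transporter gene, was lower in hippocampus, by -0.96 (SE 0.23, limma adjusted p = 0.014) in control and -1.33 (SE 0.23, adjusted p = 0.0026) in exposed arrays. The control call was lost without cortex control 1, cortex control 6 or hippocampus control 6 (-1.0, -0.91 and -0.79, adjusted p = 0.073, 0.098 and 0.09).

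Most listed genes of thyroid hormone and retinoid handling and response were not highest where Ttr was. The 10 measured were Rbp4, Stra6, Crabp2, Aldh1a2, Dio2, Dio3, Thra, Thrb, Klf9 and Hr. Their median deviation was 0.14 in hippocampus control 1, and 2 were highest there, against 28.4% of all tested probe sets. The 10 are not all in the test, and nothing is read from this count. Rbp4, encoding the retinol-binding protein that transthyretin carries, measured 7.13 in hippocampus control 1, 6.50 in control 6, 7.32 in exposed 3 and 6.55 in exposed 6, against 8.67 to 9.53 in cortex. Stra6, the gene of its receptor, measured 8.47, 7.33, 7.74 and 7.27 in the same hippocampus arrays, against 5.57 to 6.15 in cortex. Rbp4 was lower in hippocampus (control -2.24, SE 0.37, limma adjusted p = 0.0013; exposed -2.17, SE 0.37, adjusted p = 0.0022). Stra6 was higher (control 2.10, SE 0.38, limma adjusted p = 0.0025; exposed 1.51, SE 0.38, adjusted p = 0.019). The exposed Stra6 call was lost without cortex exposed 3, cortex exposed 6 or hippocampus exposed 3 (1.36, 1.68 and 1.28, adjusted p = 0.12, 0.059 and 0.13).

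Among thyroid hormone response genes, the receptor gene Thrb was lower in hippocampus in both arms (control -1.97, SE 0.26, limma adjusted p = 0.00029; exposed -1.50, SE 0.26, adjusted p = 0.0025). The target gene Klf9 was lower too, by -0.81 (SE 0.19, adjusted p = 0.013) and -0.78 (SE 0.19, adjusted p = 0.019). The control call of Klf9 was lost without cortex control 1, cortex control 6 or hippocampus control 1 (-0.85, -0.78 and -0.74, adjusted p = 0.074, 0.097 and 0.062), and the exposed call without any 1 of the 4 exposed arrays (adjusted p = 0.071 to 0.093). In exposed arrays Thra was higher by 0.71 (SE 0.20, limma adjusted p = 0.036; 0.015 to 0.16 over the alternatives). The Thra call was lost without any 1 of the 4 exposed arrays or either control cortex array, with quantile normalization (adjusted p = 0.051) and without the mean-variance trend (0.084), while the difference stayed between 0.66 and 0.76. For exposure 0 of 9 tested passed in limma in either tissue, with 0 at unadjusted p under 0.05.

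Genes around Sostdc1 and Otx2 in WNT and BMP signalling deviated by a median of 0.15 in hippocampus control 1. Otx1, the relative of Otx2, measured 4.57 there and 4.42 to 4.96 elsewhere. The WNT co-receptor genes Lrp6 (control 1.14, SE 0.26, adjusted p = 0.011; exposed 0.91, SE 0.26, adjusted p = 0.038) and Lrp5 (exposed 1.47, SE 0.32, adjusted p = 0.0097) were higher in hippocampus by limma. Rspo2, a WNT agonist gene, was higher in exposed arrays by 1.05 (SE 0.29, adjusted p = 0.029). The control call of Lrp6 was lost without cortex control 1, cortex control 6 or hippocampus control 1 (1.12, 1.15 and 0.91, adjusted p = 0.075, 0.066 and 0.072). Its exposed call was lost without any 1 of the 4 exposed or 2 control cortex arrays (0.78 to 1.04, adjusted p = 0.063 to 0.2) and with quantile normalization (0.74, adjusted p = 0.077). The call of Lrp5 was lost without cortex exposed 3 or hippocampus exposed 6 (1.26 and 1.20, adjusted p = 0.087 and 0.086). That of Rspo2 was lost without any 1 of the 4 exposed arrays (0.84 to 1.27, adjusted p = 0.052 to 0.19) and with quantile normalization (0.89, adjusted p = 0.065). For exposure 0 of 10 passed in limma. At unadjusted p under 0.05 there were 1 in hippocampus and 0 in cortex, against 5.81% and 6.18% of all tested probe sets. Of klotho's partners 1 of 5 was tested, Fgfr1, a receptor that klotho turns into one for FGF23. Fgfr1 measured 8.08 in hippocampus control 1, 7.49 in control 6, 7.58 in exposed 3 and 8.40 in exposed 6, against 4.87 to 5.90 in cortex. It was higher in hippocampus in both arms (control 2.65, SE 0.35, limma adjusted p = 0.00032; exposed 2.23, SE 0.35, adjusted p = 0.0014).

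Markers of neighbouring cell types were read in the same array. Ependymal genes, of the ciliated cells that line the ventricles, were highest of the tissue in hippocampus control 1 for 8 of 8 probe sets. The share over all tested probe sets was 28.4%. The 8 include probe sets outside the test, and this list too was made with earlier results known, so nothing is read from the count. The mean level of the ependymal genes was 5.83 in hippocampus control 1, 4.39 to 4.6 in the other hippocampus arrays and 3.89 to 4.04 in cortex. Cfap126 measured 9.47 there against 5.56 to 5.88, and Ak7 measured 6.66 against 4.08 to 5.33. In controls the ependymal genes Cfap126 (3.30, SE 0.80, adjusted p = 0.014), Ak7 (1.85, SE 0.42, adjusted p = 0.01) and Ccdc153 (1.08, SE 0.32, adjusted p = 0.039) were higher in hippocampus by limma. Without cortex control 1 or cortex control 6 these calls were lost (Cfap126 2.97 and 3.63, adjusted p = 0.11 and 0.056; Ak7 1.75 and 1.95, adjusted p = 0.08 and 0.054; Ccdc153 1.10 and 1.06, adjusted p = 0.15 and 0.16). Without hippocampus control 1 the differences were 1.5 for Cfap126, which passed, and 1.18 for Ak7 and 0.86 for Ccdc153 (adjusted p = 0.071 and 0.16). The Ccdc153 call was also lost with no filter on low values (1.08, adjusted p = 0.053) and with quantile normalization (0.92, adjusted p = 0.077). The part of ependymal cells in the values of the 10 genes was not tested.

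Markers of other cell types differed less between hippocampus control 1 and the other hippocampus arrays, though some were highest there. Meningeal and fibroblast markers had a mean level of 6.74 there and 5.97 to 6.99 in the other hippocampus arrays, the highest in exposed 3. Dcn measured 11.95 in control 1, 11.94 in control 6, 10.79 in exposed 3 and 9.47 in exposed 6. Endothelial markers averaged 7.93 against 7.42 to 7.95, with Cldn5 at 7.65 against 6.98 to 7.27, and Plvap, of fenestrated capillaries such as those of the choroid plexus, at 3.84 against 2.89 to 3.37. Pericyte markers averaged 8.10 against 8.01 to 8.42 and border macrophage markers 4.87 against 4.68 to 5.28. The endothelial receptor gene Kdr was 8.07 against 7.07 to 7.43. The 1 blood gene measured, Alas2, was 5.46 against 4.35 to 4.85. Cldn5, Plvap, Kdr and Alas2 were thus above the other hippocampus arrays, and their part in the values of the 10 genes was not tested.

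Several of the 10 genes are known from other organs, and markers of these were read too. Hepatocytes also make Ttr and F5, and the 9 hepatocyte markers averaged 3.35 in hippocampus control 1 and 3.28 to 3.61 in the other hippocampus arrays, with Alb at 4.57 against 4.03 to 5.05. Retinal pigment epithelium shares Ttr, Otx2 and Kcnj13, and its 5 markers averaged 4.37 against 4.16 to 4.39, with Rpe65 at 3.41 against 3.35 to 4.09 and Rlbp1, which glia also express, at 7.55 against 6.87 to 7.47. The 3 pineal markers averaged 3.19 against 2.96 to 3.08. Cortical markers averaged 9.54 against 9.47 to 10.07 and hippocampal markers 9.48 against 9.18 to 9.40.

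For exposure limma passed 0 of the tested genes of these lists in both tissues, where 1 of 14804 probe sets (0.00675%) passed in each tissue. Few genes were tested in some lists: 3 border macrophage, 2 hepatocyte, 2 retinal pigment epithelium, 1 blood and 0 pineal genes. At an unadjusted p under 0.05 there were 3 of 5 ependymal genes in hippocampus and 1 in cortex, 1 of 8 endothelial genes and 1 of 6 cortical probe sets in each tissue, and 1 of 8 meningeal and 1 of 6 hippocampal genes in hippocampus. The shares over all tested probe sets were 5.81% in hippocampus and 6.18% in cortex. Without hippocampus control 1, which leaves a single control array, the ependymal median in hippocampus went from -0.93 to -0.32 and the endothelial median from 0.28 to 0.51. Between tissues 0 pericyte, border macrophage, blood and hepatocyte genes passed, with 0 at an unadjusted p under 0.05 apart from Alas2 in exposed arrays. Over all tested probe sets 10.1% passed higher and 7.63% lower in controls, and 9.25% and 5.22% in exposed arrays. The shares at an unadjusted p under 0.05 were 31.4% in control and 29.3% in exposed arrays. Limma passed some genes of the other lists. In controls Dcn (4.26, SE 0.48, adjusted p = 8.1e-05), Lum (2.45, SE 0.53, adjusted p = 0.0074) and Col1a1 (1.10, SE 0.31, adjusted p = 0.031) were higher in hippocampus and Igfbp6 lower (-3.81, SE 0.30, adjusted p = 6.1e-06). In exposed arrays Dcn was higher by 2.23 (SE 0.48, adjusted p = 0.0084) and Igfbp6 lower by -3.60 (SE 0.30, adjusted p = 1.2e-05). The endothelial gene Cdh5 was lower in control hippocampus (-1.09, SE 0.30, adjusted p = 0.027), and Rlbp1 was higher in exposed hippocampus (1.17, SE 0.32, adjusted p = 0.028). Leaving out single arrays ended the calls of Lum (1.74 and adjusted p = 0.092 without cortex control 6), Col1a1 and Cdh5 (without cortex control 1, cortex control 6 or hippocampus control 6, adjusted p up to 0.2 and 0.19), Rlbp1 (without cortex exposed 3, cortex exposed 6 or hippocampus exposed 3, up to 0.18) and, in exposed arrays, Dcn (1.46 without cortex exposed 6 and 1.57 without hippocampus exposed 3, adjusted p = 0.078 and 0.085).

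**Figure D4:**
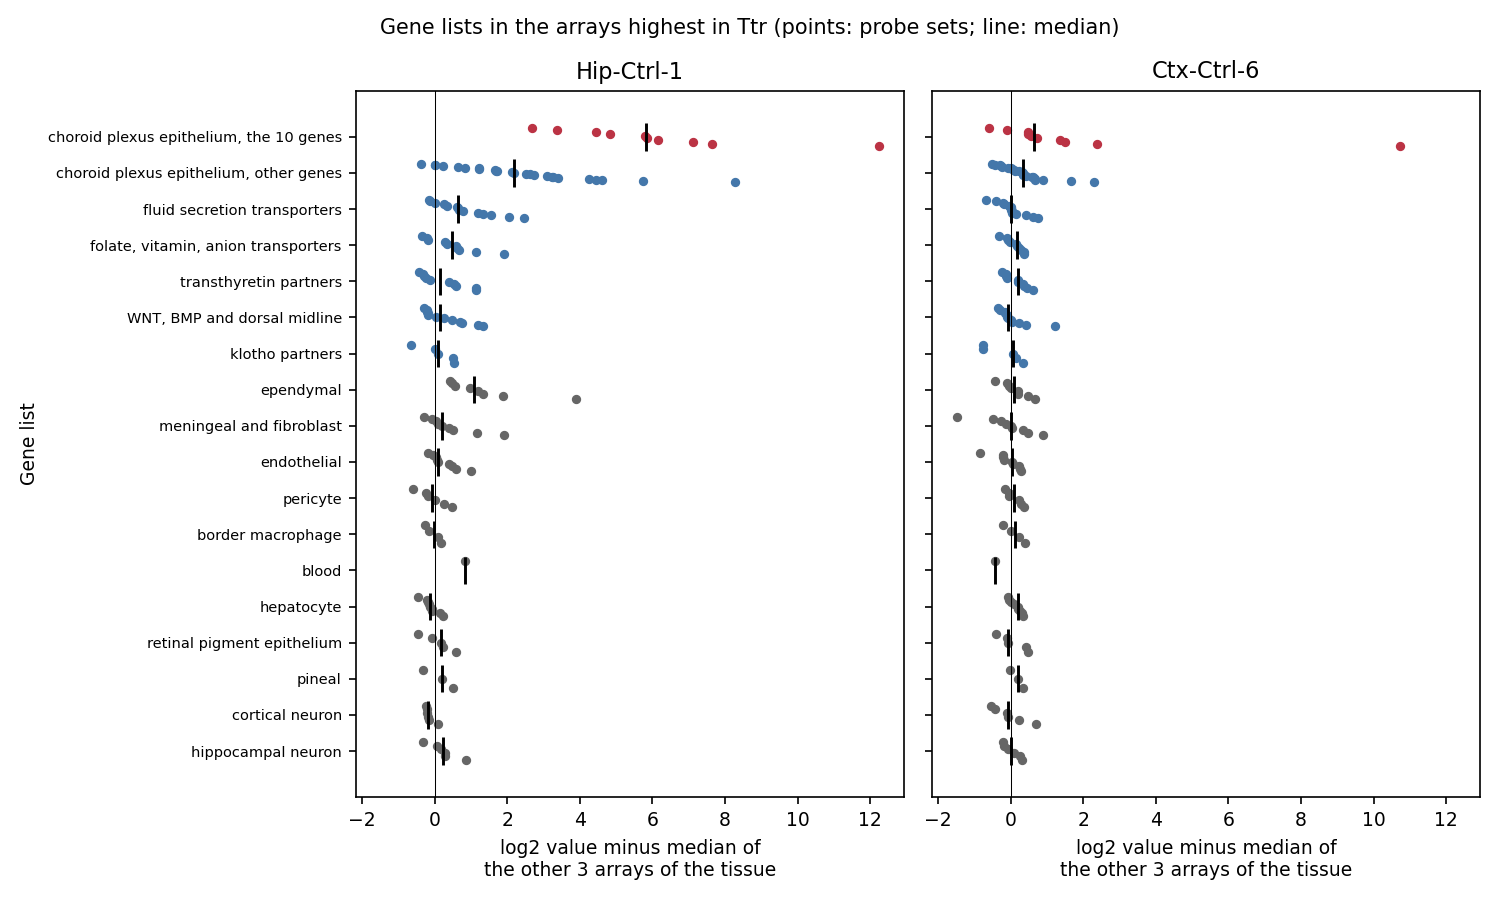
The plot gives, for each gene list (vertical axis), the log2 value of every probe set minus the median of the other 3 arrays of the tissue (horizontal axis) in hippocampus control 1 on the left and cortex control 6 on the right, with a black line at the list's median. The 10 genes have a median of 5.83 in hippocampus control 1, the other choroid plexus genes 2.19 and the ependymal genes 1.08, while in cortex control 6 these medians are 0.64, 0.33 and 0.11. The list labelled transthyretin partners holds the genes of thyroid hormone and retinoid handling and response.

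Genes with a like pattern were sought over all 13241 tested probe sets with 1 symbol. The measure was the root mean square distance over the 8 arrays, after each gene's own median was taken off, to the median profile of the 10 genes. The 15 nearest other genes lay at distances of 0.41 to 1.28 on the log2 scale, against a median of 2.13 over all compared. They were, from the nearest, Lbp, Ecrg4, Cfap126, Steap1, Ace, Pon3, Tc2n, Cd59a, Pcolce2, Rdh5, Cldn1, Mr1, Ifi27, Rsph4a and Slc16a9. Of these, 4 stand in the list of other choroid plexus genes and 1 in the ependymal list.

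Their high value in hippocampus control 1 follows from how they were picked, since the profile has its one large deviation there, and their levels are given as a description. Lbp measured 11.17 in hippocampus control 1, 4.81 to 5.78 in the other hippocampus arrays and 4.08 to 5.81 in cortex, where 5.81 was cortex control 6. Steap1, a metalloreductase gene, measured 8.23 against 3.69 to 3.94 in hippocampus and 3.57 to 4.42 in cortex. Ace, encoding angiotensin-converting enzyme, measured 10.33 against 5.61 to 6.33 and 5.77 to 6.51. Pon3, a paraoxonase gene, measured 10.10 against 6.37 to 7.08 and 5.77 to 6.41. Rdh5, a retinol dehydrogenase gene, measured 7.59 against 4.52 to 4.93 and 4.22 to 4.75, and the claudin gene Cldn1 7.81 against 3.95 to 4.70 and 4.16 to 5.31. Rsph4a, a radial spoke gene of motile cilia, measured 9.13 against 6.96 to 7.08 and 5.42 to 5.91.

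Of the 10 genes themselves, 8 were nearer to the profile than the fifteenth of these, which is built in, since the profile is their own median. Kl was at 1.33, with its higher level in all hippocampus arrays. Ttr was at 3.95, farther than nearly all of the probe sets compared, with 2 arrays far above its median. The distance depends on the size of a deviation as well as on its pattern.

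**Figure D5:**
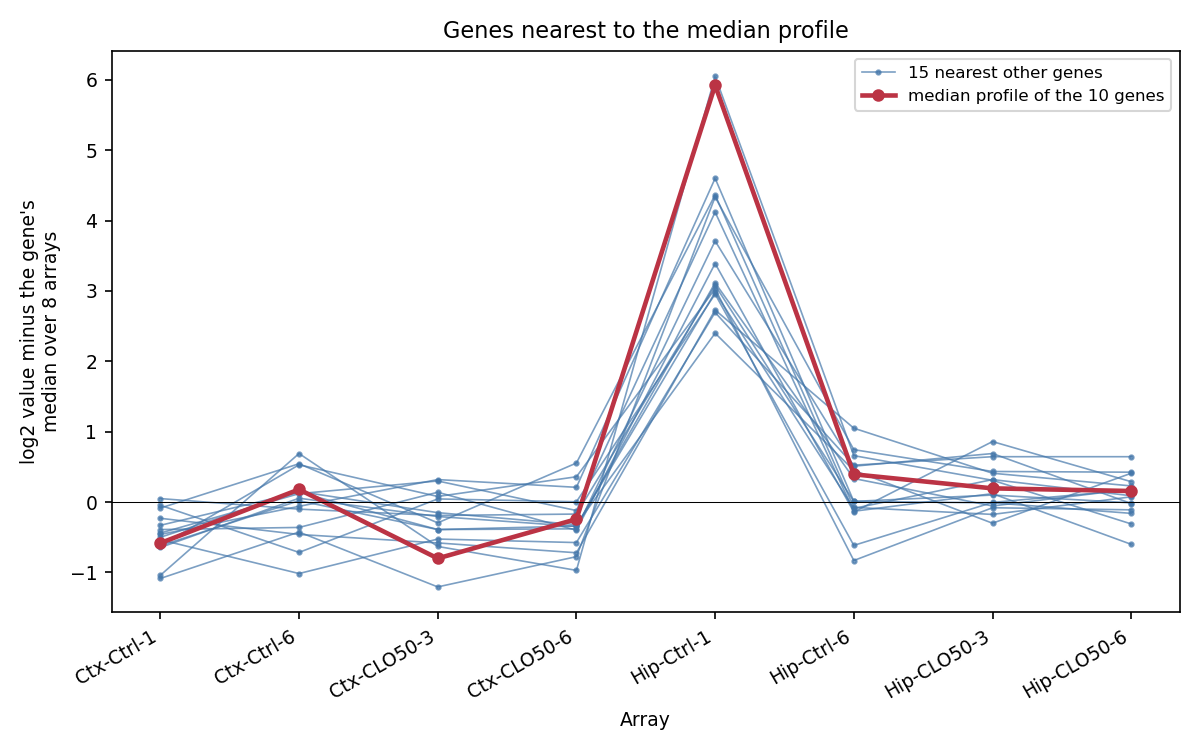
The plot gives, for each of the 8 arrays (horizontal axis), the log2 value minus the gene's own median over the arrays (vertical axis), as a red line for the median profile of the 10 genes and blue lines for the 15 nearest other genes. The red line reaches 5.92 in hippocampus control 1 and stays between -0.80 and 0.40 in the other arrays, and each blue line has its highest point in the same array.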

How the data were processed

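The 10 genes and all lists were chosen with earlier results of these data known. Per the labels' protocols, 250 ng of total RNA, accepted above an integrity number of 7.0, was labelled with GeneChip WT kits. The authors deposited log2 values per probe set, and the submitters' processing notes name RMA. That the scale is log2 rests on what RMA gives by default and on the values, 1.59 to 19.93. Version, summary level and joint normalization of the arrays were not stated. Symbols came from GEO's platform annotation (2634 probe sets have none, 0 have several).

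Probe sets in the lowest 33.3% by mean were left out, and 14804 were tested with limma 3.58.1 in R 4.3.3 (1 mean per group, all 8 arrays, mean-variance trend, two-sided, Benjamini-Hochberg within each of 4 comparisons, threshold 0.05). The 10 genes were in the fit, and no p-value is given for them. The fit was tested on simulated data with planted changes and independent noise per probe set. The simulated data hold none of the deviations shared within an array that the measured data hold, so their effect was not tested. The number of arrays limits the precision. Named were the 10 genes, a fixed set from 17 other lists, list genes past the threshold (at most 6 per list and comparison) and the 15 nearest patterns. Some genes of the fixed set are not reported here. Alternatives were no filter, a filter at 50%, quantile normalization, no trend, array weights, each array left out, both arrays highest in Ttr left out, and, for tissues, the label number as a block.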

Additional observations from a re-analysis of the deposited data

How the results depend on the processing

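For exposure, limma called 1 probe set in cortex and 1 in hippocampus. In cortex the count was 0 with quantile normalization or without the trend, 2 with array weights and 3 without the 2 arrays highest in Ttr. In hippocampus it was 0 under each of these 4 settings. Leaving out single arrays gave 0 to 2 in cortex and 0 to 56 in hippocampus, with 56 without hippocampus control 6, of which 52 were lower. For the tissues, 2620 were called in control arrays (1289 to 2532 with single arrays left out, 1155 without the 2 arrays highest in Ttr) and 2143 in exposed arrays (1074 to 2440). The cause of these shifts was not tested, beyond the fewer arrays.

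The median over the 10 genes was -0.375 in cortex (-0.68 to 0.29 with single arrays left out, 0.29 without the 2 arrays highest in Ttr) and -2.67 in hippocampus (-5.71 to -0.22). For the tissues it was 3.10 in control arrays (0.215 to 6.15) and 0.62 in exposed arrays (0.31 to 0.98). With the lowest 50% left out, 5 of the 10 genes passed the filter.

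With the label number as a replicate block, 3433 and 2835 probe sets were called between tissues in control and exposed arrays, and the medians of the 10 genes kept their values of 3.10 and 0.62. The labels do not say that numbers mark animals. Across probe sets, the difference between the 2 arrays of an arm correlated between tissues at -0.001 in control and 0.276 in exposed arrays, so the block was not used. Exposed and control arrays come from differently treated mice, so no paired analysis of exposure was possible. No detection value or signal over background was available, which limits what can be said of values near 3.937.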
